A study of Homo sapiens with 6 samples.

Results

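The genes described here are the core of the cell cycle engine: cyclins, cyclin-dependent kinases (CDKs), CDK inhibitors, the retinoblastoma (RB) family and the E2F transcription factors. A list of 54 gene symbols was matched to the probe sets of a whole-transcript Affymetrix array. Of these, 53 were measured among 17687 genes in all, each by 1 probe set, and CDKN2C was not analysed here. The arrays compare Jurkat cells kept in a collagen gel, called 3D here, with Jurkat cells kept in suspension. Jurkat is an established human cell line derived from T-ALL, an acute leukaemia of T cell precursors, so all samples share 1 tumour genome. For the 3 arrays of 3D, cells were mixed into bovine type I collagen at 1.7 mg/mL, which set for 1 h, and medium then covered the gel for 2 h. For the 3 arrays of suspension, cells stayed free in medium for the same 3 h. Medium was RPMI with serum in both groups.

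Cyclins rise and fall through the cell cycle and switch on CDKs. D cyclins with CDK4 or CDK6, and then E cyclins with CDK2, phosphorylate RB proteins and so free E2F factors to transcribe the genes of S phase, while cyclins A and B with CDK1 drive mitosis. INK4 and CIP/KIP proteins hold these kinases back. Other members of both families serve transcription and splicing, as cyclin T with CDK9 does in releasing paused RNA polymerase II. In T cell leukaemia, D cyclins with CDK6 are known drivers of proliferation, and Jurkat cells are known to lack the CDKN2A locus.

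Values are the deposited log2 expression levels, so a difference of 1 is a 2-fold change. Levels of different genes cannot be set against each other, because each probe set binds with its own strength. Both groups hold biological replicates 1 to 3 by their titles, which do not tell how these arose, so p-values measure the spread between these samples only. Array medians lay between 5.55 and 5.64, arrays correlated pairwise at 0.971 to 0.991 over all genes, and the number of arrays limits the precision. All 8 measured T cell markers had means of 7.25 or more. All 5 myeloid markers, 3 of 4 B cell markers and 4 of 5 fibroblast markers had means under 6, the limit used below for dim probe sets. The median level of the T cell markers ran from 9.22 to 9.71 over the arrays of 3D, and from 9.58 to 9.78 over those of suspension.

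The comparison of groups asked which of these genes differed after 3 h in collagen. The largest differences were those of CCNT2, RBL1, CCNH, CCNL1 and CDK17: 3 cyclins of transcription and splicing, 1 RB relative and 1 atypical kinase. No member passed limma's moderated test at an adjusted p under 0.05, and neither did any other gene (0% of 17687). Of 53 members, 6 (11.3%) had an unadjusted p under 0.05, 5 higher and 1 lower in 3D. Over all genes this share was 9.87%, made of 5.9% higher and 3.97% lower, and over the genes with a mean of at least 6 it was 12.7%. Of the 46 members of that brightness 6 had such a p (13%). The members' share thus lay near the background. The median log2 difference (3D minus suspension) was 0.11 over the 53 members, with 33 higher and 20 lower. Over all genes it was -0.02, with 8376 higher and 9311 lower. After a further quantile normalization these medians were 0.06 and -0.01. The 2 sets differ in brightness: 7 of 53 members had means under 6, against 9345 of 17687 genes. Medians and signs were not compared over the brighter genes alone.

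**Figure D1:**
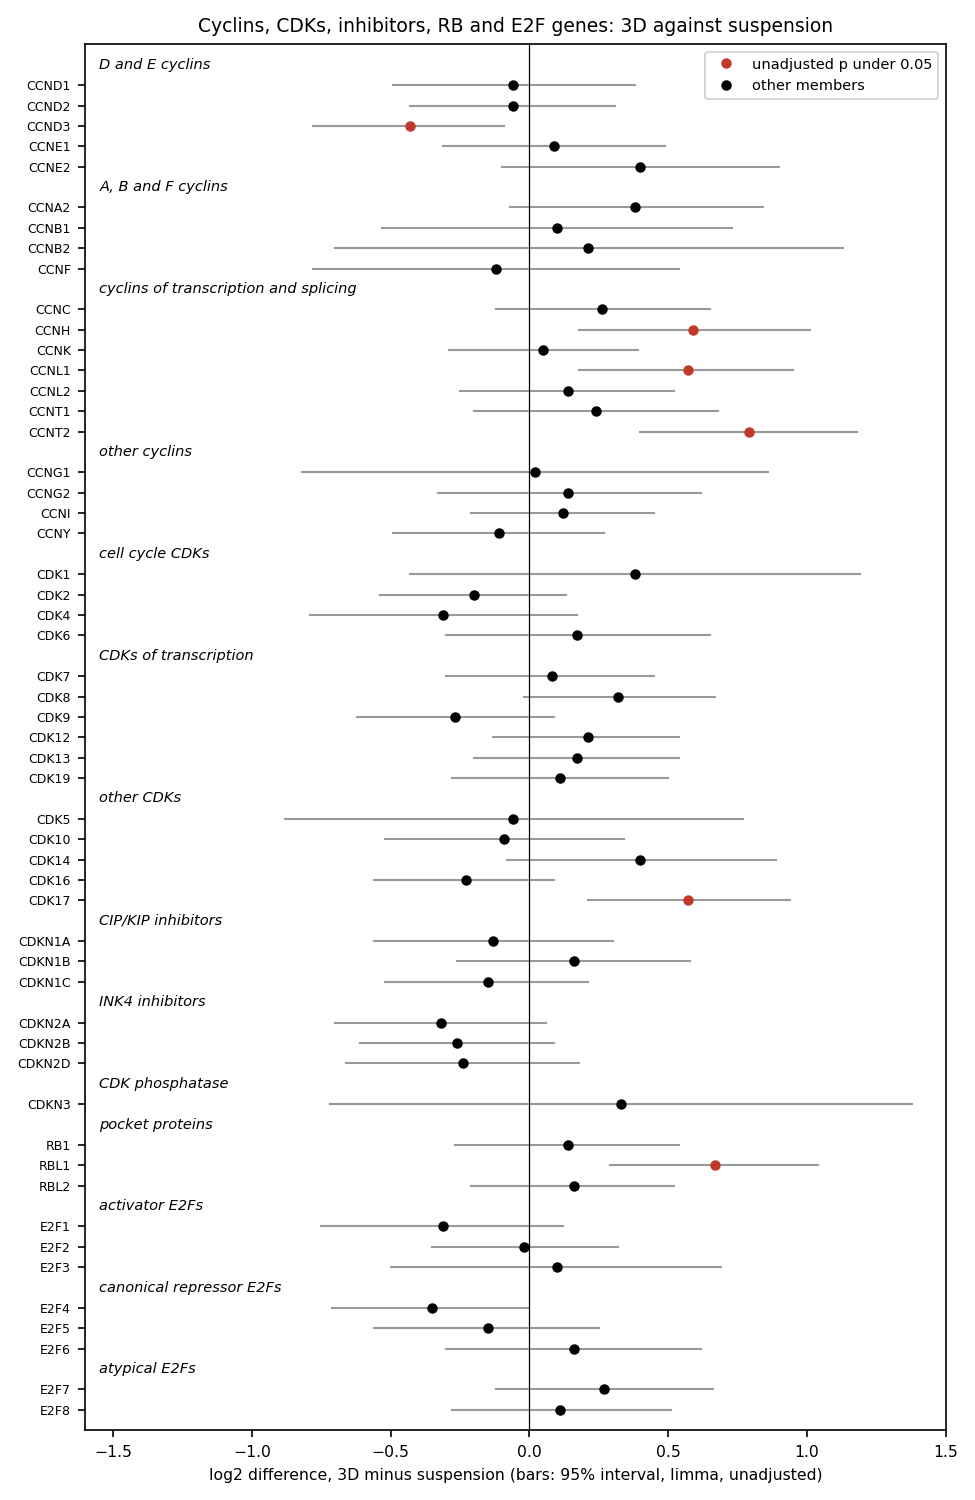
Log2 difference (3D minus suspension) of the 53 measured members, grouped by role, with 95% intervals from limma that are not adjusted for the number of genes. The 6 members in red had an unadjusted p under 0.05, CCNT2, RBL1, CCNH, CCNL1 and CDK17 to the right of 0 and CCND3 to the left.

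All 7 cyclins of transcription and splicing measured higher in 3D, with a median difference of 0.26 and a range from 0.05 to 0.79. Over all genes 8376 of 17687 were higher. With 1 array or pair left out at a time, CCNK and CCNL2 fell as low as -0.03 and -0.01. The direction of this small group was not tested. CCNT2 encodes cyclin T2, a partner of CDK9 in the elongation factor P-TEFb. It measured 9.60, 9.51 and 9.69 in 3D replicates 1, 2 and 3, against 8.52, 8.83 and 9.07 in suspension replicates 1, 2 and 3. Every 3D array lay above every suspension array, and the means were 9.60 ± 0.09 and 8.81 ± 0.28 (SD, n = 3 each). The difference was 0.79 ± 0.18 (SE), or 1.73-fold, with a limma adjusted p of 0.341. CCNL1 encodes cyclin L1, a partner of CDK11 in pre-mRNA splicing. It measured 9.41, 9.37 and 9.59 in 3D, against 8.98, 8.62 and 9.08 in suspension, again with no overlap. Its difference was 0.57 ± 0.17 (SE), with a limma adjusted p of 0.399.

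CCNH encodes cyclin H, which with CDK7 and MNAT1 forms the CDK-activating kinase of the general factor TFIIH. It measured 8.0, 7.76 and 8.08 in 3D and 7.02, 7.60 and 7.43 in suspension, with a difference of 0.59 ± 0.19 (SE) and a limma adjusted p of 0.399. The groups did not overlap, but 3D replicate 2 and suspension replicate 2 were only 0.16 apart. With 1 array or pair left out at a time, the CCNH difference ran from 0.40 to 0.81. The remaining cyclins of this kind, CCNC of the Mediator kinase, CCNK of CDK12 and CDK13, CCNL2 and CCNT1, had differences of 0.26, 0.05, 0.14 and 0.24.

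Of the 6 kinases of transcription, 5 measured higher in 3D and CDK9 lower, with a median difference of 0.14 and a range from -0.27 to 0.32. CDK9, the partner of cyclin T, measured 9.33, 9.28 and 9.03 in 3D, against 9.57, 9.35 and 9.53 in suspension. Its 3D arrays all lay below those of suspension, a difference of -0.27 ± 0.16 (SE) with a limma adjusted p of 0.597, opposite in sign to CCNT2. CDK8, a kinase of the Mediator complex, measured 8.43, 8.14 and 8.30 in 3D, against 7.96, 8.04 and 7.91 in suspension, a difference of 0.32 ± 0.16 (SE). CDK12, a kinase of elongating RNA polymerase II, had 0.21 ± 0.15 (SE), and neither CDK8 nor CDK12 overlapped between the groups. CDK7, the partner of cyclin H, had a difference of 0.08, with a 95% interval from -0.30 to 0.45. CDK13 and CDK19 had 0.17 and 0.11.

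**Figure D2:**
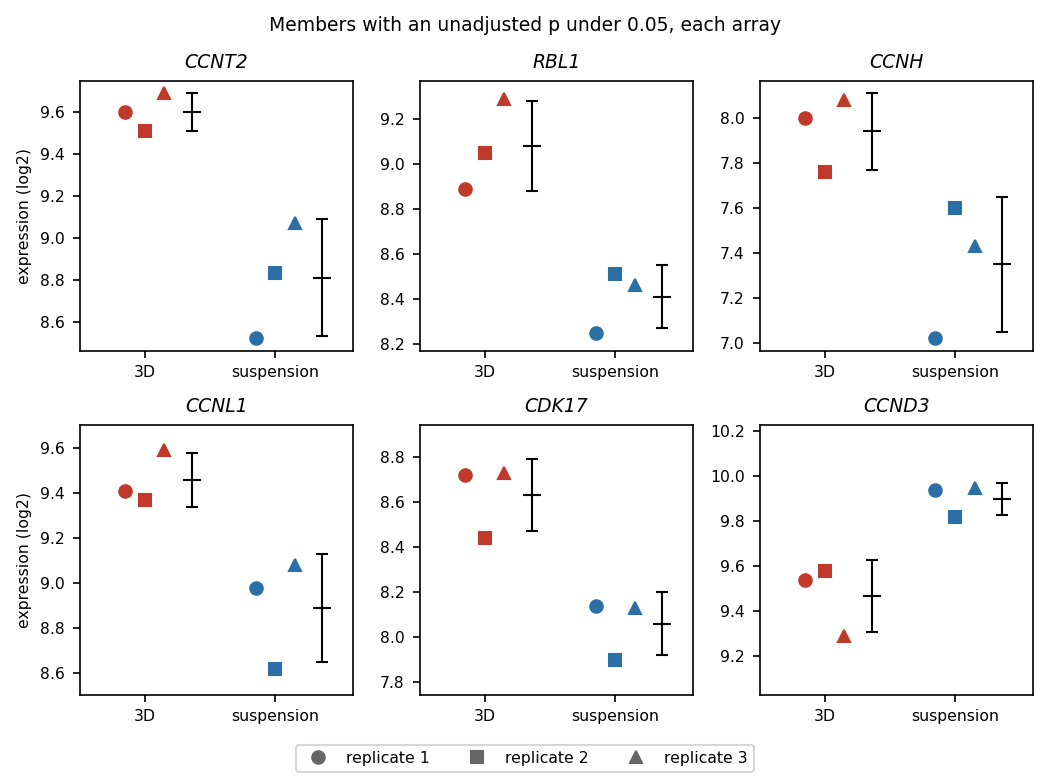
Expression (log2) of the 6 members with an unadjusted p under 0.05 in each array, with 3D at the left and suspension at the right of each panel. Symbols mark the replicate number, and the bar beside each group is its mean ± SD (n = 3); in all 6 panels the groups do not overlap.

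Among the pocket proteins, which bind and restrain E2F factors, RBL1 had the largest difference. RBL1 encodes p107, the RB relative that rises in cycling cells. It measured 8.89, 9.05 and 9.29 in 3D, against 8.25, 8.51 and 8.46 in suspension. No array of 3D reached down to suspension, and each replicate number showed the same direction, by 0.63, 0.54 and 0.83. The difference was 0.67 ± 0.17 (SE), or 1.59-fold, with a limma adjusted p of 0.359. RB1, the tumour suppressor itself, had 0.14 ± 0.18 (SE), and RBL2, which encodes p130 of resting cells, 0.16 ± 0.16 (SE). Both overlapped between the groups.

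D and E cyclins, which act before S phase, did not move together. CCND3 encodes cyclin D3, the D cyclin most tied to T cell growth. It measured 9.54, 9.58 and 9.29 in 3D, against 9.94, 9.82 and 9.95 in suspension. All 3D values lay below all suspension values, and the difference was -0.43 ± 0.16 (SE), or 1.35-fold lower in 3D, with a limma adjusted p of 0.427. CCND1 and CCND2 had means under 6 in both groups, and differences of -0.06 each. CCNE2, a cyclin of S phase entry, measured 8.87, 9.04 and 9.46 in 3D, against 8.29, 8.90 and 8.99 in suspension. Its groups overlapped, with a difference of 0.40 ± 0.23 (SE), while its paralogue CCNE1 had 0.09 ± 0.18 (SE).

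The 4 kinases of the core cycle gave differences between -0.31 and 0.38. CDK4, a partner of D cyclins, measured 10.08, 9.68 and 9.48 in 3D and 10.45, 9.85 and 9.87 in suspension. It was lower in 3D in each replicate number, by 0.37, 0.17 and 0.39, but the groups overlapped, as 3D replicate 1 lay above suspension replicates 2 and 3. The difference was -0.31 ± 0.22 (SE), with a limma adjusted p of 0.636. CDK2, the partner of cyclins E and A, measured 9.40, 9.58 and 9.53 in 3D and 9.79, 9.68 and 9.66 in suspension. These groups did not overlap, with a difference of -0.20 ± 0.15 (SE). CDK6 had 0.17 ± 0.21 (SE), and CDK1, described further below, 0.38 ± 0.37 (SE).

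Cyclins A, B and F, which peak in G2 and mitosis, had a median difference of 0.16, and 0 of 4 had groups without overlap. With 1 array or pair left out at a time, this median ran from -0.18 to 0.47. CCNA2, cyclin A2, measured 9.89, 10.30 and 10.54 in 3D, against 9.57, 9.99 and 10.02 in suspension. Each replicate number was higher in 3D, by 0.32, 0.31 and 0.52, and the limma adjusted p was 0.557. CCNB1, CCNB2 and CCNF had differences of 0.10, 0.21 and -0.12, with 95% intervals from -0.53 to 0.73, from -0.70 to 1.13 and from -0.78 to 0.54. Intervals this wide come with the large spread between replicates described below.

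CDK17, a PCTAIRE-family kinase of poorly known function, led the remaining CDKs. It measured 8.72, 8.44 and 8.73 in 3D, against 8.14, 7.90 and 8.13 in suspension. The groups did not overlap, and the replicate numbers differed by 0.58, 0.54 and 0.60. The difference was 0.57 ± 0.16 (SE), or 1.49-fold, with a limma adjusted p of 0.380. Its relative CDK16 lay on the other side, at 8.03, 8.07 and 8.0 in 3D and 8.30, 8.21 and 8.27 in suspension, a difference of -0.23 ± 0.15 (SE) with no overlap. CDK14, with both means under 6, had 0.40 ± 0.22 (SE), CDK5 had -0.06 ± 0.37 (SE) and CDK10 -0.09 ± 0.19 (SE).

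CDK inhibitors gave small differences. The 3 INK4 genes measured, whose proteins block CDK4 and CDK6, were all lower in 3D, with a median of -0.26. CDKN2A, which encodes p16 and ARF, measured 3.75, 3.38 and 3.82 in 3D, against 3.91, 4.10 and 3.90 in suspension. CDKN2B, its neighbour that encodes p15, measured 5.44, 5.29 and 5.47 in 3D, against 5.62, 5.54 and 5.83 in suspension. Both were dim in every array, and for both the groups did not overlap, with differences of -0.32 ± 0.17 (SE) and -0.26 ± 0.16 (SE). Jurkat cells are known to lack the CDKN2A locus, so these differences are not read here as a change in RNA of the genes. At such a level the arrays by themselves do not tell RNA from background signal. Both genes are nevertheless counted below among the members without overlap. CDKN2D, which encodes p19 of the INK4 family, had -0.24 ± 0.19 (SE).

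Of the CIP/KIP genes, CDKN1A (p21), a p53 target that halts the cycle, measured 5.03, 5.02 and 5.36 in 3D, against 4.98, 5.23 and 5.59 in suspension. Its groups overlapped, with a difference of -0.13 ± 0.19 (SE). CDKN1B (p27), the inhibitor of resting T cells, had 0.16 ± 0.19 (SE) and CDKN1C (p57) -0.15 ± 0.16 (SE).

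Within the E2F family 1 member had groups without overlap. E2F4, a mostly repressive E2F that binds p107 and p130, measured 8.85, 8.74 and 8.51 in 3D, against 9.13, 8.96 and 9.08 in suspension. The difference was -0.35 ± 0.16 (SE), with a limma adjusted p of 0.513. E2F1, an activator of S phase genes, had -0.31 ± 0.20 (SE). It was higher in 3D by 0.12 in replicate 1 and lower by 0.34 and 0.72 in replicates 2 and 3. E2F2 and E2F3, the other activators, had -0.02 and 0.10. E2F5 and E2F6 had -0.15 and 0.16, and the atypical repressors E2F7 and E2F8, which switch E2F targets off again, had 0.27 and 0.11.

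The groups did not overlap for 15 of 53 members (28.3%), 8 higher and 7 lower in 3D. Over all genes this share was 16.3%, with 8.28% higher and 8.03% lower. Over the genes with a mean of at least 6 it was 20.4%, against 13 of 46 members (28.3%). CCNI, a cyclin of unclear function in cycling cells, was among the 8, with a difference of 0.12 ± 0.15 (SE).

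With the replicate number as a block, limma called 0 of 53 members and 16 of all genes (0.0905%) at an adjusted p under 0.05. At an unadjusted p under 0.05 it had 11 members (20.8%), against 17.4% of all genes. CCNT2 had the smallest adjusted p of the members (0.0682), followed by RBL1 (0.0855), CDK17 (0.0952), CCNL1 (0.108) and CCNH (0.130). When this fit was limited to the 8342 genes with a mean of at least 6, it called 6 of 46 members (13.0%), below the 14.4% of all genes in that fit. Over all genes 10.6% were called higher and 3.78% lower, against 5 and 1 of the members. These were the same 6 members named above at an unadjusted p under 0.05, and their adjusted p were 0.00111 for CCNT2, 0.003 for RBL1, 0.00692 for CDK17, 0.00851 for CCNL1, 0.0105 for CCNH and 0.0362 for CCND3. Without pair 1 that fit called CCNL1, CCNT2, CDK17 and RBL1 (8.7% of members), against 5.49% of all genes. Without pair 3 it called CCNL1, CCNT2 and RBL1 (6.52%), against 4.87%. Without pair 2 it called 8 members (17.4%), no larger a share than the 17.5% of all genes.

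The members' differences were set against gene span, the length of the gene on the genome from start to end. All genes were put into 5 bins of equal number by span. Of the 9 members in the shortest bin (up to 7.24 kb), 8 were lower in 3D (88.9%), with a median of -0.24; of all genes in that bin 66.3% were lower, with a median of -0.09. Of the 13 members in the longest bin (86.8 kb or more) 2 were lower (15.4%), with a median of 0.17, against 40.4% of all genes and a median of 0.06. In the 3 bins between, from short to long, the members' medians were 0.11, 0.08 and 0.16 and those of all genes -0.07, -0.02 and 0.05. By these medians the members' bins differed mainly between the shortest and the others. In the same 3 bins 35.7%, 33.3% and 20.0% of members were lower in 3D, against 61.6%, 53.1% and 41.8% of all genes. The 8 members above suspension without overlap spanned 17 to 151 kb, with a median of 101 kb, and the 7 below it spanned 4.76 to 115 kb, with a median of 6.76 kb. CDKN2A and CDKN2B, both dim, are among these 7. Such spans were not taken over all genes without overlap, so this split has no background beside it. All genes also leaned lower in the shortest bin, as given above. CCND3, at 115 kb, went against this order. The slope of level on span over all genes was 0.266, 0.236 and 0.289 log2 per 10-fold span in 3D, against 0.137, 0.195 and 0.177 in suspension. With each array's slope removed, the differences were 0.77 for CCNT2, 0.61 for RBL1, 0.58 for CCNL1, 0.54 for CCNH, 0.51 for CDK17 and -0.50 for CCND3. CDK9, E2F4 and CDK2 then had -0.20, -0.30 and -0.15.

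**Figure D3:**
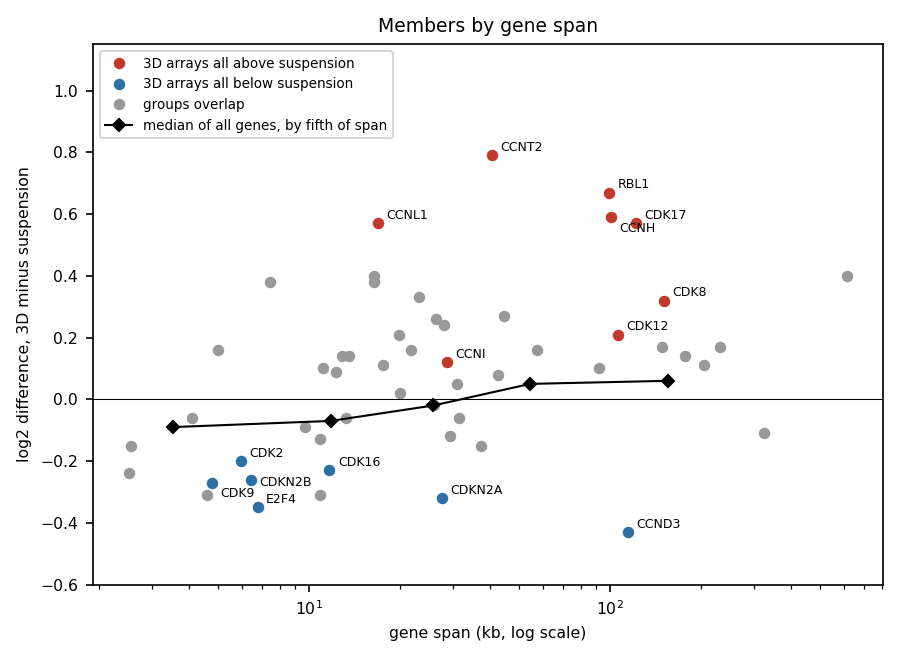
Log2 difference (3D minus suspension) of each member against gene span in kb on a log scale, with the median of all genes in each of 5 bins of span as diamonds. Members whose 3D arrays all lay above suspension have a median span of 101 kb, and those whose 3D arrays all lay below it 6.76 kb. These 2 medians were not taken over all genes.

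CDK1, the kinase of mitosis, its cyclins CCNB1 and CCNB2, and CDKN3 were lowest in replicate 1 of both groups. Levels were compared between replicate numbers by limma's moderated F test in the fit with group and replicate number. It passed for 8 of 53 members (15.1%) at an adjusted p under 0.05, where 527 of all genes passed (2.98%). Calls with replicate 1 lowest made up 6 of the 8, or 11.3% of the members, against 1.67% of all genes. Of the genes with a mean of at least 6, 4.88% passed, against 8 of 46 members (17.4%). When the fit held these brighter genes alone, 13 of 46 members (28.3%) and 22% of all genes passed, so there the members' share was closer to the background. The numbers were taken to pair the arrays because same-numbered arrays deviated together over all genes. For number 2 this was weak, with a correlation of 0.12, against 0.149 for 3D replicate 2 with suspension replicate 3. The F test is not independent of this check of pairing. Without replicate 1 limma's test passed for 0 members and 0 genes, with 0 members and 1064 genes (6.02%) at an unadjusted p under 0.05. The calls thus rest on how replicate 1 differs from the other two. In RNA from bulk cells, fewer cells in a phase and less RNA per cell cannot be told apart.

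CDKN3, a phosphatase that removes the activating phosphate from CDK2 and CDK1, had the largest F value of the members. It measured 8.44, 9.54 and 10.03 in 3D replicates 1, 2 and 3, and 7.85, 9.51 and 9.66 in suspension replicates 1, 2 and 3. Over both groups, the means of replicates 1, 2 and 3 were 8.15, 9.52 and 9.84 (adjusted p 0.00211 by limma's F test). This range of 1.70 compares with a difference between groups of 0.33. CCNB2, cyclin B2, measured 8.14, 9.41 and 9.63 in 3D, against 8.0, 9.07 and 9.47 in suspension. CDK1 measured 8.62, 9.74 and 9.98 in 3D, against 8.42, 9.09 and 9.68 in suspension. Replicate 1 was the low one in both groups for both genes, and the ranges of the replicate means were 1.48 and 1.30.

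CCNB1, cyclin B1, measured 8.62, 9.50 and 9.47 in 3D, against 8.61, 9.11 and 9.58 in suspension. CCNF, cyclin F, an F-box protein that marks substrates for destruction in G2, measured 6.52, 7.57 and 7.52 in 3D, against 6.82, 7.52 and 7.64 in suspension. CCNG1, cyclin G1, a p53 target not bound to mitosis, measured 8.77, 9.66 and 9.87 in 3D, against 8.48, 9.80 and 9.97 in suspension. All 3 were lowest in replicate 1 of each group. Their ranges were 0.91, 0.92 and 1.29, against group differences of 0.10, -0.12 and 0.02.

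Of the 8 members that passed, 2 went the other way and were highest in replicate 1. CDK5, an atypical CDK best known from neurons, measured 10.24, 9.19 and 8.72 in 3D, against 10.12, 8.98 and 9.22 in suspension. E2F3, an activator of S phase genes, measured 7.71, 6.99 and 6.76 in 3D, against 7.53, 6.87 and 6.77 in suspension. The adjusted p of the 8 by limma's F test ran from 0.00211 to 0.0473, and the ranges of their replicate means from 0.85 to 1.70. CCNE2 and CCNA2 were lowest, and CDK4 and CDK6 highest, in replicate 1, with ranges of 0.65, 0.55, 0.59 and 0.54. They did not pass here, but all 4 and CCNG2 passed in the fit of genes with a mean of at least 6 and in the fit with a variance trend. Over the 53 members the range of replicate means was larger than the group difference for 35 (66%), against 72.6% of all genes. Such a range and such a difference are unlike measures, so these shares are read only beside each other.

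**Figure D4:**
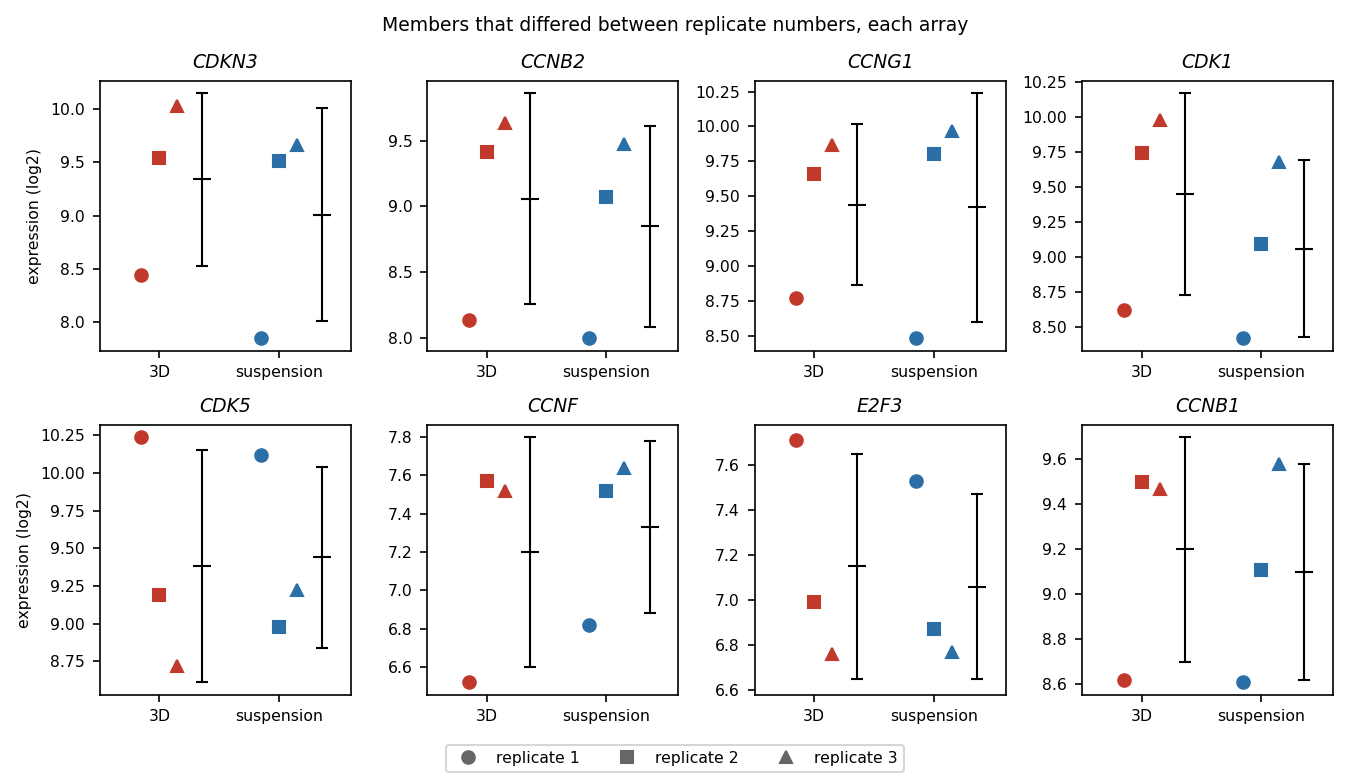
Expression (log2) in each array of the 8 members that passed the F test of the replicate number, with 3D at the left and suspension at the right of each panel, symbols for the replicate number and mean ± SD (n = 3) beside each group. Replicate 1, the circle, lies lowest in both groups for CDKN3, CCNB2, CCNG1, CDK1, CCNF and CCNB1 and highest for CDK5 and E2F3.

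**Figure D5:**
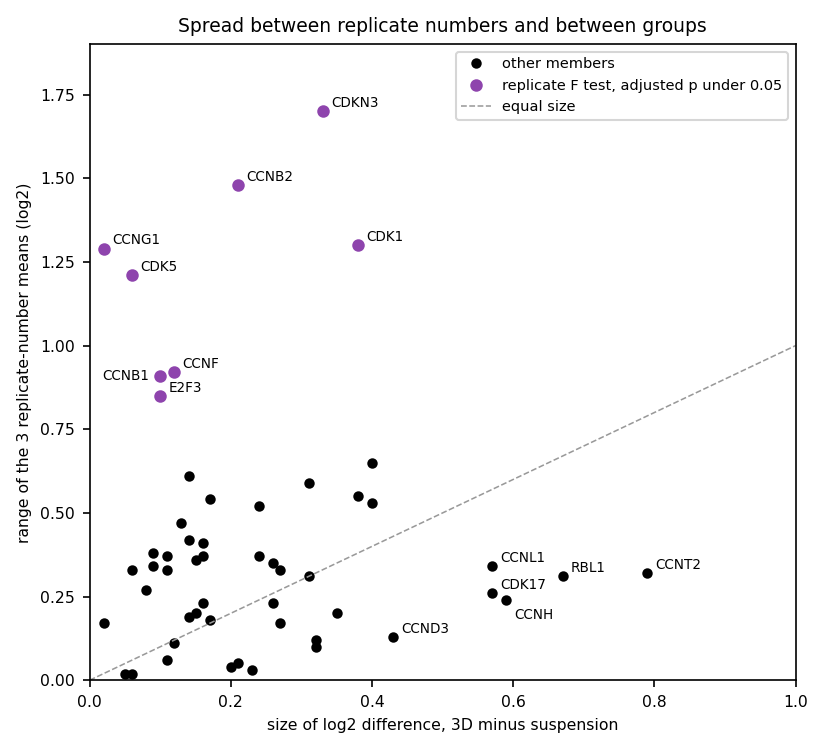
Range of the means of the 3 replicate numbers (log2) against the size of the difference between 3D and suspension (log2), 1 point per member, with a dashed line where both are equal. The 8 members that passed the F test lie far above the line, and CCNT2, RBL1, CCNH, CCNL1, CDK17 and CCND3 lie below it. Both sets were picked by tests of the values plotted, so their places follow from that choice. A range over 3 means and a difference between group means are unlike measures, and 72.6% of all genes had the larger range.

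Promoters are shown for 5 of the 8 members, those that hold a CHR motif, an element known for cell cycle genes. They were picked by the motif and do not share 1 pattern over replicates. E2F3 was highest in replicate 1, and the other 4 were lowest. CCNB1, CCNG1 and CDK5, which hold no such motif, are not shown, though CCNB1 and CCNG1 were also lowest in replicate 1. The CHR is the element through which the DREAM and MYB-MuvB complexes hold mitotic genes off in G1 and on in G2, often with CCAAT boxes, the sites of NF-Y, nearby. Sequences are those of RefSeq on GRCh38.p14, 250 bases before to 50 after the gene's start, 5′ to 3′ on the gene's strand, with matches on either strand in capitals. The windows are chr15:59104896-59105195 for CCNB2, chr10:60778081-60778380 for CDK1, chr14:54396757-54397056 for CDKN3, chr16:2429197-2429496 for CCNF and chr6:20401629-20401928 for E2F3, all on the + strand.
CCNB2: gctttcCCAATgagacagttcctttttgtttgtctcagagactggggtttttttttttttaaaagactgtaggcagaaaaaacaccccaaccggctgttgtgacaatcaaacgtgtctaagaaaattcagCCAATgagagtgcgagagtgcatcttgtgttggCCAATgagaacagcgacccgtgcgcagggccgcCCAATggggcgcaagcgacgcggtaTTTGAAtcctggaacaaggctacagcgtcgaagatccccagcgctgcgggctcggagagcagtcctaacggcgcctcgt
CDK1: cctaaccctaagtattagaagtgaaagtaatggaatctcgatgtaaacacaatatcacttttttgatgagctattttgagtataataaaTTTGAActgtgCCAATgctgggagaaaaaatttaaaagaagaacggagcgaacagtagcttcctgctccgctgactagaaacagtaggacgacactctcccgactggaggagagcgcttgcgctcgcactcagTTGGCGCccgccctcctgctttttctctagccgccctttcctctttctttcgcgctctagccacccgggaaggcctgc
CDKN3: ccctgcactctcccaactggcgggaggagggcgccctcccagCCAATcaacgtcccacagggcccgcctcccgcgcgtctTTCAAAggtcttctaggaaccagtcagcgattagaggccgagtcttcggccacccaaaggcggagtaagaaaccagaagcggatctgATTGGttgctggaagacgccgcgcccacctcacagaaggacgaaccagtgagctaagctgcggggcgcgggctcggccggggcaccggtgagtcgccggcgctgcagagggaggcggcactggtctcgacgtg
CCNF: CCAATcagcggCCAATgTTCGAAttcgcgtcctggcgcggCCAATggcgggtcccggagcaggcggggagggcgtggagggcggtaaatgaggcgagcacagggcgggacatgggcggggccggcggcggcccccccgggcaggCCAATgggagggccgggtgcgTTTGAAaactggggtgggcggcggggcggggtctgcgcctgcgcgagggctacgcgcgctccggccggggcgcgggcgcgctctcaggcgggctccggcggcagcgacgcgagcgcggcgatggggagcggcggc
E2F3: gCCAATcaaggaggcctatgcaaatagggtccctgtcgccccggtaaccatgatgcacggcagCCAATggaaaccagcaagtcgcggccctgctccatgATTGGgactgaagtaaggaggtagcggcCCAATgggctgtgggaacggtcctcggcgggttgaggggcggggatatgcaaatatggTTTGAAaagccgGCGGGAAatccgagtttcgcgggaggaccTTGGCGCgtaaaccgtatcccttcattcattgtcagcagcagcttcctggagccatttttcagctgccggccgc

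The motifs searched were TTTGAA and TTCGAA for the CHR, TTCCCGC and TTGGCGC for E2F, and CCAAT for NF-Y, each on both strands; TTCGAA reads the same on both. The F test passed for 6 members with replicate 1 lowest. A CHR motif stood in the promoters of 4 of these 6 (66.7%) and in E2F3. It stood in 3 of 38 promoters of members that did not pass the F test (7.89%) and in 13.4% of the 14250 promoters of genes measured. All 6 that passed with replicate 1 lowest held CCAAT, against 31.6% of the members that did not pass and 36.4% of all genes. CHR and CCAAT together stood in 4 of these 6, in 5.26% of the members that did not pass, and in 5.52% of all genes. An E2F motif stood in 1 of the 6, CDK1, in 18.4% of the members that did not pass, and in 12.4% of all genes. E2F3, highest in replicate 1, held CHR, CCAAT and E2F motifs, so the combination was not particular to promoters lowest in replicate 1. Motif shares were not taken over the 296 genes of the array that passed with replicate 1 lowest, so a matching background is missing. The members were listed as cell cycle genes, and a link between motifs and the replicate pattern was not tested. Over all 8 members that passed, 7 promoters held CCAAT, 5 held CHR and CCAAT together, and 2 held an E2F motif. The promoters of CCNB1 and CCNG1 held CCAAT and neither TTTGAA nor TTCGAA in this window, and that of CDK5 held none of the motifs. Other forms of the CHR were not searched, so an element in CCNB1 or CCNG1 could be missed. The CHR matches began at -29 from the start in CCNB2, -65 in E2F3, -233 and -85 in CCNF and -161 in CDK1. In CDKN3 the match lay on the other strand, at -170. Whether any of them acts as a CHR was not tested. Such matches describe letters in a window and are not measured binding, and 7 members had no promoter in the table.

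Lists of other genes around this engine gave 0 genes past the adjusted p with or without the replicate block. At an unadjusted p under 0.05 they held 7 of 82 genes (8.54%), near the 9.87% of all genes. Of 16 measured CDK activators, inhibitory kinases and adaptors, 2 were higher and 1 lower at an unadjusted p under 0.05 by limma, with a median of -0.02. MNAT1, the assembly factor of the CDK-activating kinase, measured 8.41, 8.05 and 8.59 in 3D, against 7.48, 7.79 and 7.95 in suspension, a difference of 0.61 ± 0.19 (SE) beside that of its partner CCNH. WEE1, which holds CDK1 inactive, had 0.41 ± 0.17 (SE), PKMYT1, the related kinase, -0.47 ± 0.23 (SE), and CDK5R2, an activator of CDK5, -0.52 ± 0.16 (SE). The limma adjusted p of these 4 ran from 0.399 to 0.519.

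Of 16 classical E2F targets, 1 was higher and 0 lower at that level, with a median of 0.15. Differences lay above 0 for 12 and below for 4, against 8376 and 9311 over all genes. All 16 had means of at least 6, and signs were not counted over all genes of that brightness. HELLS, a chromatin remodeller of S phase, measured 9.58, 9.41 and 9.37 in 3D, against 9.07, 8.67 and 8.72 in suspension. ATAD2 and MCM10 had 0.48 ± 0.24 (SE) and 0.35 ± 0.19 (SE), and TK1, thymidine kinase, lay lower at -0.36 ± 0.17 (SE). The limma adjusted p of these 4 ran from 0.380 to 0.555.

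The 12 E2F partners and subunits of DREAM, MYB-MuvB and FOXM1 had 0 genes at that level, with a median of 0.09. LIN9, a MuvB subunit, had the smallest p, with a difference of 0.40 ± 0.20 (SE), followed by RBBP7 at 0.25, LIN54 at 0.25 and MYBL2 at -0.20. Of 21 ubiquitin ligase genes for cyclins and inhibitors, 1 was higher, ANAPC10 of the anaphase-promoting complex at 0.40 ± 0.17 (SE), with a list median of 0.03. CDC16, FBXW7, which marks cyclin E for destruction, and FBXO5 had 0.33, 0.33 and 0.44. Of 17 further cyclin and CDK family genes, 1 was higher and 1 lower: CCNB3, a dim probe set, at 0.61 ± 0.21 (SE), and CCNQ, the partner of CDK10, at -0.51 ± 0.21 (SE). CDK11B, a partner of cyclin L, had 0.39 ± 0.22 (SE), and CCNJL -0.27 ± 0.16 (SE).

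The F test of the replicate number passed for 3 of the 82 genes of these lists (3.66%), near the 2.98% of all genes. MYBL1, a MYB factor, had means of 4.63, 5.98 and 6.21 in replicates 1, 2 and 3, and CKS1B, a CDK-binding adaptor, 8.27, 9.12 and 9.16, both lowest in replicate 1. ORC1, the E2F-driven origin recognition subunit, had 8.50, 7.65 and 7.66 and was highest in replicate 1.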

How the data were processed

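Per the submitters' processing notes, the deposited log2 values were made by the authors with RMA and the Transcriptome Analysis Console; the sources used here give no versions. RMA corrects background, gives arrays a common distribution and summarises each probe set, which shrinks differences of dim probe sets. RNA was labelled with a whole-transcript kit, per the labels' protocols. The platform annotation named 1 gene for 17709 of 21448 probe sets, several for 0 and none for 3739. All 17709 matched RefSeq (GRCh38.p14) by gene identifier. For 20 genes with over 1 probe set the one of highest mean was kept, which left 17687 genes. All value columns belong to the 6 arrays.

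Groups and replicate numbers came from the titles. Groups were compared with limma 3.58.1 under R 4.3.3 (lmFit, then eBayes), with group as the only term, two-sided, Benjamini-Hochberg over all genes, threshold 0.05, with 4 residual and 6.79 prior degrees of freedom (2 and 9.78 with the replicate block). The replicate numbers were compared with the moderated F test. Same-numbered arrays, after subtracting group means, correlated at 0.521, 0.120 and 0.337 for numbers 1, 2 and 3, and all exceed 0.1, so they were treated as pairs. For number 2 this is weak: 3D replicate 2 correlated at 0.149 with suspension replicate 3, and 3D replicate 3 at 0.230 with suspension replicate 2. The fits were tested on simulated data. The alternatives were the replicate block, each array or pair left out, quantile normalization, a mean of at least 6, a variance trend, the mean of probe sets and removal of the span trend. The members, lists and named genes were chosen with earlier results of these data known: per-array values for members with an unadjusted p under 0.05, the 2 of smallest p in each role, the largest replicate effects and the CDKN2A locus, and up to 4 genes of smallest p per further list. Plots were drawn with matplotlib 3.10.9 (Python 3.11.15).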

Additional observations from a re-analysis of the deposited data

How the results depend on the processing

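In every alternative without the replicate block, limma called 0 members and 0 genes at an adjusted p under 0.05. With the replicate block it called 16 genes and, with the span trend removed as well, 23, and in both 0 members. With the replicate block and a mean of at least 6, 1199 genes and 6 members passed. Further settings of that fit, the pairs left out among them, were chosen after seeing the data: after quantile normalization 1216 genes and 7 members passed, and with the span trend removed 1058 and 8. Of members at an unadjusted p under 0.05 there were 11 with the replicate block, 14 with a mean of at least 6 as well, and 15 and 11 in the settings chosen later. With 1 array or pair left out, over the fits with and without the block, calls ranged from 0 to 1457 for all genes and from 0 to 8 for members, and members at an unadjusted p under 0.05 from 5 to 14. The F test of the replicate number passed for 1835 genes and 13 members at a mean of at least 6, and for 1669 and 13 with a variance trend. With a pair left out it ranged from 0 to 1392 genes and from 0 to 9 members, 0 being the value without pair 1. The cause of these shifts was not tested.

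Of the 53 members, 31 kept the sign of their difference in all alternatives run, among them CCNT2, RBL1, CCNH, CCNL1, CDK17 and CCND3. CCNG1 turned to -0.04 after quantile normalization, and CDK5 to 0.02 with the span trend removed, with and without the block. Leaving out 1 array or pair turned the sign of others, over these ranges of log2 difference: CCND1 -0.24 to 0.15, CCND2 -0.18 to 0.14, CCNE1 -0.02 to 0.26, CCNB1 -0.15 to 0.39, CCNB2 -0.21 to 0.67, CCNF -0.38 to 0.22, CCNK -0.03 to 0.14, CCNL2 -0.01 to 0.32, CCNG1 -0.45 to 0.35, CCNG2 -0.06 to 0.33, CCNY -0.32 to 0.04, CDK6 -0.04 to 0.32, CDK7 -0.04 to 0.21, CDK19 -0.02 to 0.19, CDK5 -0.48 to 0.28, CDK10 -0.28 to 0.07, CDKN1A -0.28 to 0.03, CDKN3 -0.25 to 0.78, RB1 -0.01 to 0.24, E2F2 -0.07 to 0.03, E2F3 -0.18 to 0.33, E2F6 -0.10 to 0.34. The number of arrays limits all of these values, and a fit with the block and a pair left out keeps 1 residual degree of freedom per gene. CCND1, CCND2, CDK14, CDKN1A, CDKN1C, CDKN2A and CDKN2B had means under 6.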
